A study of Mus musculus with 12 samples.

Results

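Transcripts of 4 growth factor genes, Gdf9, Bmp15, Bmp6 and Fgf8, and of the receptor gene Kit were followed in mouse oocytes across the pubertal transition. These 5 genes were picked by symbol, with no threshold on a measured value, from the 24562 genes of the deposited count table, and all 5 passed the filter on low counts that left 13943 genes for testing. RNA-Seq had been performed on 12 pools of 18 to 45 oocytes from CD-1 mice, with 3 pools at each of postnatal day (PND) 13 and PND 40 and in each of the PND 16 small and PND 16 large cohorts, which separate lighter from heavier mice of the same age. The study groups PND 13 and PND 16 small as meiotically non-competent and PND 16 large and PND 40 as competent, meaning able to resume and complete the first meiotic division. These labels belong to the cohorts, and no score of competence is given for the sequenced pools. For the weight split at PND 16, the paper mentions a small number of mice and does not show the maturation data. All oocytes came from antral follicles of ovaries without gonadotropin stimulation, were stripped of cumulus cells by pipetting and were held at the germinal vesicle stage with milrinone, an inhibitor of phosphodiesterase 3. The groups were compared with one another, and no untreated arm or deletion was part of the design.

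GDF9 and BMP15 are secreted members of the TGF-beta superfamily that the oocyte releases toward its granulosa cells, where they signal through BMPR2 and SMAD proteins. BMP6 belongs to the bone morphogenetic branch of the same superfamily, and FGF8 is a fibroblast growth factor known to act together with BMP15 on cumulus cell glycolysis. KIT is the receptor tyrosine kinase on the oocyte surface for KIT ligand, which granulosa cells produce. The growth factors thus carry signals out of the oocyte, while KIT receives a signal from granulosa cells.

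Gdf9 lies at chr11:53431023-53437904 on the plus strand, Bmp15 at chrX:6314107-6320721 on the minus strand, Bmp6 at chr13:38345107-38500302 on the plus strand, Fgf8 at chr19:45736798-45742915 on the minus strand and Kit at chr5:75574916-75656722 on the plus strand (GENCODE M21 on GRCm38). Bmp15 and Bmp6 moved together across the pools whereas Kit did not, and a part of the promoters in this was not tested. RefSeq promoters (GRCm38.p6) were available for 3 of the 5 genes, Bmp15, Bmp6 and Kit. For all 3, the 250 bases before the RefSeq start site are shown. They were searched on both strands for the E-box (CANNTG), the element bound by basic helix-loop-helix factors such as FIGLA, and for TAATTG, an element bound by NOBOX, and E-boxes are in capitals. The windows are chrX:6320725-6320974 (minus strand) for Bmp15, chr13:38345466-38345715 (plus strand) for Bmp6 and chr5:75574737-75574986 (plus strand) for Kit, each written 5′ to 3′ on the strand of its gene. The start sites of the 2 annotations differ, so that the Bmp6 window lies inside the GENCODE span of Bmp6 given above and the Kit window runs into that of Kit.
Bmp15: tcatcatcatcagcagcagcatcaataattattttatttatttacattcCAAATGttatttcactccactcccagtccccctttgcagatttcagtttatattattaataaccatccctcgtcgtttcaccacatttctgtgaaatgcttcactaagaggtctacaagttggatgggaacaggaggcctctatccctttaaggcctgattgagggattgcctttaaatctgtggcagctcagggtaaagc
Bmp6: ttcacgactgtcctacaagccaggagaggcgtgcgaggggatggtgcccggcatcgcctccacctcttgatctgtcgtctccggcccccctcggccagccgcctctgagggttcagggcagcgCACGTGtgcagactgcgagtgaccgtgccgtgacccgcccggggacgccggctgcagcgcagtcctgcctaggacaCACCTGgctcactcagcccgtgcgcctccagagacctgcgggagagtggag
Kit: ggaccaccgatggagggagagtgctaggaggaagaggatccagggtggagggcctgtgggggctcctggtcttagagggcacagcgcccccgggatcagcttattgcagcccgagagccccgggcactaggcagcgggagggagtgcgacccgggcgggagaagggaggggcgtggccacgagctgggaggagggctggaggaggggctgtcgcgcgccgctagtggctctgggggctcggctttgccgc
The Bmp15 window held 1 E-box, CAAATG, which began 201 bases before the RefSeq start site. The Bmp6 window held 2, CACGTG at 127 bases and CACCTG at 51 bases, and the Kit window held none. TAATTG was in none of the 3 windows, and variants of this element were not searched. Of 27025 promoters of this length, 66% held an E-box and 7.34% held TAATTG, so that an E-box in 2 of 3 windows was close to the share among all promoters.

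The pools differed in depth and in the level of follicle cell markers. The total count ranged from 17671193 to 27418358 per pool, and the 5 genes drew between 1333 counts (Fgf8) and 106898 counts (Gdf9) in a pool. Expression is given as CPM, counts relative to the total of the pool with TMM scaling (edgeR's trimmed mean of M-values) between pools. Mean ± SD is over 3 pools. A higher CPM is thus a larger share of the counts, and the amount of a transcript per oocyte was not measured. The paper reports that oocyte diameter grew with age. Oocyte markers, 9 genes including Zp3, Ddx4 and Nlrp5, summed to between 9865 and 17337 CPM in every pool. Markers of granulosa and cumulus cells, 15 genes, summed to 401 to 868 CPM at PND 13 and 447 to 930 CPM in PND 16 small. They summed to 499.6 to 545 CPM in the PND 16 large pools and 415 to 464 CPM in those of PND 40. The 3 highest sums were those of PND 13 replicates 1 and 3 and PND 16 small replicate 2. Inha, the inhibin alpha subunit made by granulosa cells, was at 97.0, 143 and 130 CPM in these 3 pools and at 2.34 to 20.7 CPM in the other 9. PND 13 replicate 2 summed to 401 CPM with Inha, Amh, Foxl2 and Fshr at only 2.34, 1.02, 0.391 and 0.976 CPM. Most of its sum thus came from other genes of the list, whose cell of origin was not tested, so the sums are not amounts of granulosa cell RNA. Theca and stromal markers, 12 genes, summed to 9.79 to 63.6 CPM, and the defining theca genes Cyp17a1 and Insl3 reached at most 6 counts and 1 count in a pool. Markers of blood, immune and endothelial cells, 10 genes, summed to 82.4 to 105 CPM. Nearly all of this came from Pecam1 and Tek, with means of 58.8 and 31.2 CPM. Cdh5, another endothelial gene of the list, and the other listed genes added little, and the hemoglobin genes Hbb-bs and Hba-a1 were at 0 counts in every pool. Whether the Pecam1 and Tek counts came from endothelial cells was not tested. The part of these follicle cell transcripts in the results below was not tested, but the 6 comparisons that use these 3 pools were also run without them.

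**Figure D1:**
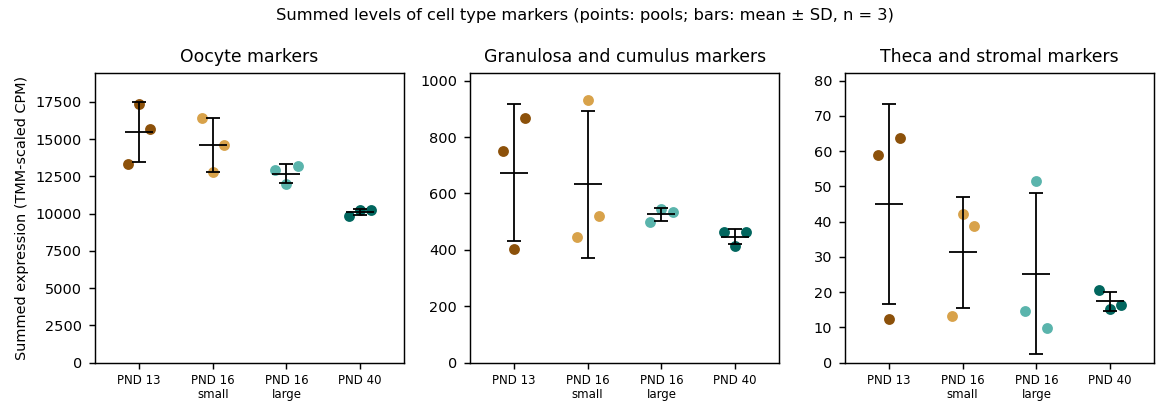
Summed expression (TMM-scaled CPM) of oocyte, granulosa and cumulus, and theca and stromal marker genes in each of the 12 pools, by cohort (points, pools; bars, mean ± SD, n = 3). PND 13 replicates 1 and 3 and PND 16 small replicate 2 have the highest granulosa and cumulus sums (751, 868 and 930 CPM), while the PND 40 pools lie between 415 and 464 CPM.

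None of the 5 genes changed by the study's criteria (a fold change of 1.5 or more with an adjusted p no higher than 0.05) in any of the 7 comparisons, which were the 6 pairs of cohorts and competent vs. non-competent oocytes. In these 35 tests by edgeR's quasi-likelihood test, 15 had an unadjusted p under 0.05 and 8 an adjusted p of at most 0.05, and DESeq2 and limma also called 0 members in each comparison. Of all genes tested, the criteria called 0.373% in PND 16 small vs. PND 13, 13.3% in PND 16 large vs. PND 13, 18.9% in PND 40 vs. PND 13 and 6.19% in PND 16 large vs. PND 16 small. They called 17.2% in PND 40 vs. PND 16 small, 3.66% in PND 40 vs. PND 16 large and 15% in competent vs. non-competent oocytes. By adjusted p alone the corresponding shares were 0.925%, 25.6%, 33.1%, 12.3%, 30.2%, 6.83% and 30.7% in the same order, against 0, 2, 2, 1, 1, 0 and 2 of the 5 genes. At an unadjusted p under 0.05 they were 19.2%, 37.6%, 43.1%, 28.2%, 40.9%, 22.4% and 42.1%, against 0, 2, 2, 3, 4, 1 and 3 of the 5. The 95% interval of the fold change lay inside 1.5-fold in both directions for 34 of the 35 tests, and the exception was Bmp6 in PND 40 vs. PND 13. With the 3 pools of highest granulosa marker sums left out, which leaves PND 13 with 1 pool that is assumed to vary like the others, 0 members were called in the 6 comparisons this touches, while 12 of these 30 tests had an unadjusted p under 0.05 and 9 an adjusted p of at most 0.05. Of all genes tested in that fit, the criteria called 0.114%, 7.16%, 10.1%, 7.97%, 17.2% and 10.7% in the same order of comparisons, and the adjusted p alone 0.121%, 9.93%, 13.9%, 14.2%, 28.4% and 18.2%. An unadjusted p under 0.05 was found for 14.1%, 26.5%, 29.1%, 29.9%, 39.9% and 32.3%.

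**Figure D2:**
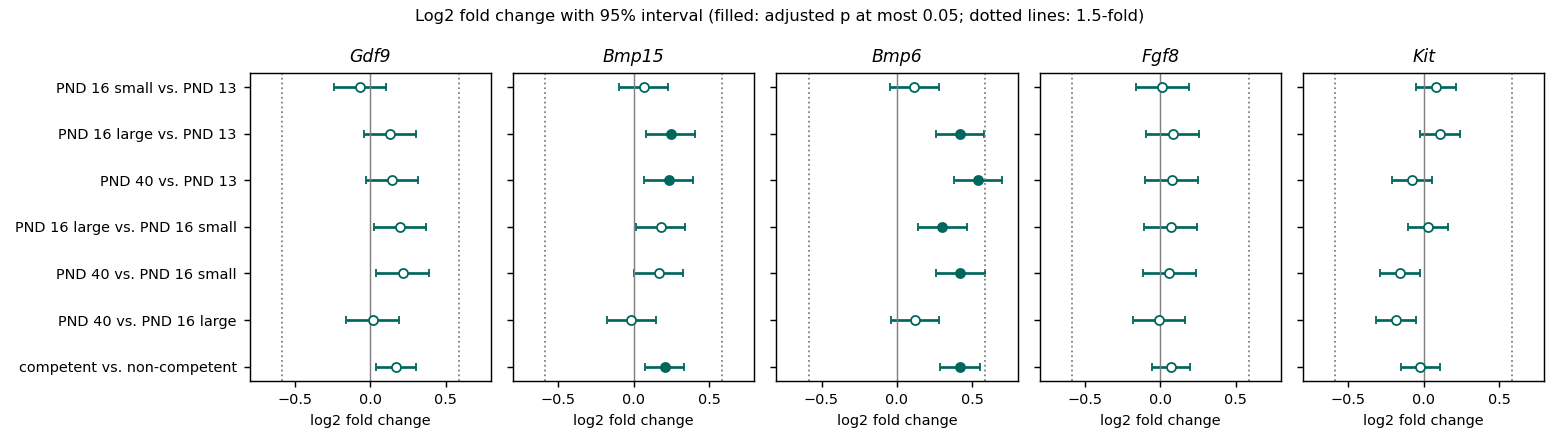
Log2 fold change of each gene in the 7 comparisons with its 95% interval (edgeR; n = 3 pools per cohort). Filled points have an adjusted p of at most 0.05, and they are the 5 comparisons of Bmp6 outside PND 40 vs. PND 16 large and PND 16 small vs. PND 13, and 3 comparisons of Bmp15; dotted lines mark 1.5-fold.

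Gdf9 was the most abundant of the 5 transcripts and ranked 8 among 24562 genes by mean CPM. Its expression was 3300.4, 4071 and 3442 CPM in the 3 PND 13 pools and 3632, 3484 and 3181 CPM in PND 16 small. The PND 16 large pools had 3999, 3968 and 3857 CPM, and the PND 40 pools had 4002, 4016 and 3927 CPM. The 6 competent pools lay within a narrow band, with a coefficient of variation of 1.52% compared with 8.86% in the 6 non-competent pools, and PND 13 replicate 2 lay above all of them. Gdf9 CPM was 1.13-fold higher in competent than in non-competent oocytes (95% interval 1.03 to 1.23, edgeR, adjusted p = 0.0505). This value sat at the threshold, since 6 of 10 other settings put it below (0.0107 to 0.136). It depended on PND 13 replicate 2, because without that pool the log2 fold change was 0.21 (adjusted p = 0.0116) and without the 3 pools of high granulosa marker sums it was 0.13 (adjusted p = 0.274). The same holds for the direction against PND 13. PND 16 large and PND 40 were above PND 13 by 0.13 and 0.14 on the log2 scale with all pools and below PND 13 replicate 2 alone, with log2 fold changes of -0.04 and -0.03. PND 16 small vs. PND 13 had a log2 fold change of -0.07 with all pools (adjusted p = 0.683) and -0.26 without the 3 pools (adjusted p = 0.268). Against PND 16 small, PND 40 had a log2 fold change of 0.21 (adjusted p = 0.0592), with no overlap between the pools, as in 43.9% of all genes tested, and of 0.23 (adjusted p = 0.0331) without the 3 pools. It passed in 6 of 10 other settings (adjusted p = 0.0256 to 0.0892) and without PND 16 small replicate 1 (0.0392). PND 40 vs. PND 13 passed without PND 13 replicate 2 (adjusted p = 0.0406). The RefSeq spans of Gdf9 and Uqcrq overlap by 58 bases, and Uqcrq had 24.6 to 36.4 CPM.

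Bmp15 ranked 9 by mean CPM, next to Gdf9. Its expression was 3397, 3377 and 2884 CPM at PND 13 and 3218, 3529 and 3366 CPM in PND 16 small. In PND 16 large it was 3944, 3745 and 3769 CPM, and at PND 40 it was 3915, 3871 and 3553 CPM. All 6 competent pools were above all 6 non-competent pools, with the nearest ones at 3553 and 3529 CPM. Together with Bmp6 this made 2 of 5 genes without overlap, compared with 14.7% of all genes tested. Bmp15 was 1.15-fold higher in competent than in non-competent oocytes (95% interval 1.06 to 1.26; adjusted p = 0.0179), and it was past the threshold in 10 of 10 other settings and after leaving out each of the 12 pools. The log2 fold change was 0.20 (adjusted p = 0.048) without the 3 pools of high granulosa marker sums. Between cohorts, Bmp15 was higher in PND 16 large than at PND 13 by 0.25 on the log2 scale (adjusted p = 0.0297) and at PND 40 than at PND 13 by 0.23 (adjusted p = 0.0316). These pairwise values passed in 9 and 7 of 10 other settings (adjusted p up to 0.123 and 0.0867), and they depended on single pools. Without PND 13 replicate 3, the lowest pool, the adjusted p was 0.123 and 0.133, and without the 3 pools it was 0.208 and 0.234. The first comparison also missed the threshold without PND 16 large replicate 1, 2 or 3 (adjusted p = 0.127, 0.0601 and 0.0813), and the second without PND 40 replicate 1 or 2 (adjusted p = 0.111 and 0.0998). PND 40 vs. PND 16 small had a log2 fold change of 0.16 (adjusted p = 0.118), which passed in 1 of 10 other settings, total counts only (0.0464), and without the 3 pools (0.20, adjusted p = 0.0428). PND 40 and PND 16 large differed by -0.02 on the log2 scale (95% interval -0.18 to 0.15).

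Bmp6 showed the largest differences of the 5 genes, from a level that ranked 859 by mean CPM. Its expression was 220.1, 228 and 190.02 CPM at PND 13 and 225, 238 and 227 CPM in PND 16 small. The PND 16 large pools had 282, 286 and 283 CPM, and the PND 40 pools had 321, 286 and 318 CPM. The lowest competent pool (282 CPM) was above the highest non-competent pool (238 CPM). Bmp6 CPM was 1.34-fold higher in competent oocytes (95% interval 1.22 to 1.47, edgeR, adjusted p = 0.000303), below the 1.5-fold criterion. The adjusted p stayed at or under 0.00114 in 10 of 10 other settings and at or under 0.00108 after leaving out each pool. Without the 3 pools of high granulosa marker sums the log2 fold change was 0.39 (adjusted p = 0.00297).

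Between the cohorts of the same age, Bmp6 was higher in the heavier mice. PND 16 large was above PND 16 small by 0.30 on the log2 scale (SE 0.07, adjusted p = 0.0208), with adjusted p = 0.0698 without PND 16 large replicate 1 and 0.0595 without replicate 2. PND 40 was above PND 13 by 0.54 (SE 0.07, adjusted p = 0.000194). This reached 0.59 without PND 40 replicate 2, the lowest of its cohort, and Bmp6 was then called. PND 16 small and PND 13 differed by 0.11 (95% interval -0.05 to 0.28), and PND 40 and PND 16 large by 0.12 (95% interval -0.04 to 0.28), and neither passed the test. Bmp6 overlaps Txndc5 on the other strand by 224 bases and the antisense gene 4930579J19Rik. The strand setting of the counting is not given in the sources used here. 4930579J19Rik had 0 counts in every pool, while Txndc5 had 482 to 606 CPM.

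**Figure D3:**
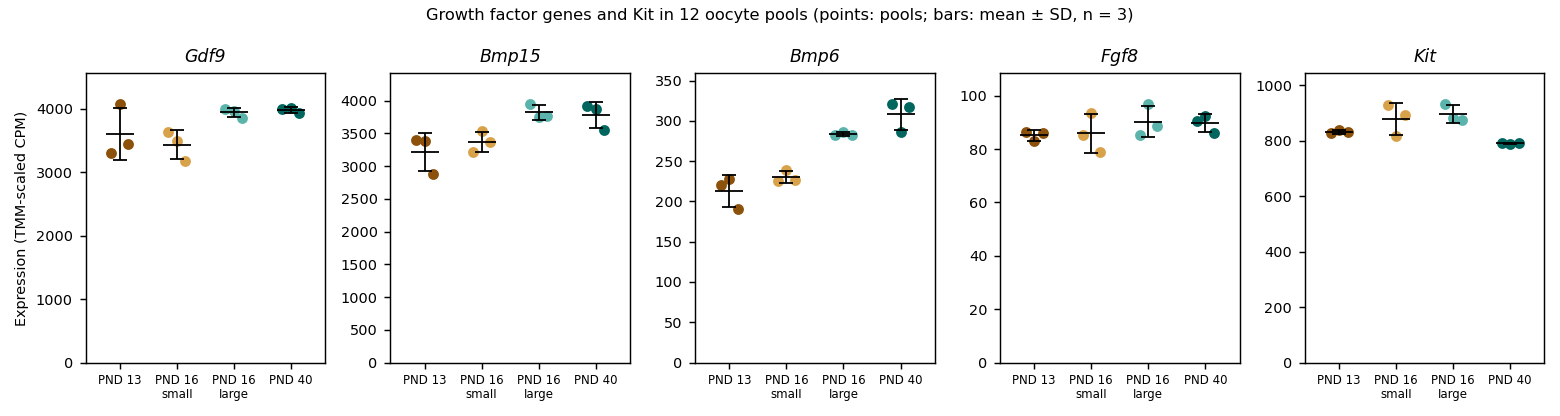
Expression (TMM-scaled CPM, axes from 0) of Gdf9, Bmp15, Bmp6, Fgf8 and Kit in each of the 12 pools, by cohort (points, pools; bars, mean ± SD, n = 3). The 6 competent pools of Bmp6 (282 to 321 CPM) lie above the 6 non-competent pools (190.02 to 238 CPM), Fgf8 stays between 79.0 and 96.8 CPM, and the 3 PND 40 pools of Kit lie at 787 to 793 CPM.

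Fgf8 was the least abundant of the 5 by CPM, at rank 2683. Its expression was 86.4, 82.9 and 86.2 CPM at PND 13 and 85.3, 93.6 and 79.0 CPM in PND 16 small. The PND 16 large pools had 85.4, 96.8 and 88.5 CPM, and the PND 40 pools had 90.5, 92.6 and 86.0 CPM. The cohorts overlapped in every comparison, and none of the 7 tests had an unadjusted p under 0.05. In competent vs. non-competent oocytes the fold change was 1.05, with a 95% interval of 0.962 to 1.15 (adjusted p = 0.386), so that a change of 1.5-fold in either direction lay outside the interval. Over the 6 pairs of cohorts, the intervals reached down to 0.880-fold and up to 1.20-fold.

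Kit, the receptor, ranked 126 by mean CPM and varied least of the 5 across the pools. Its expression was 827, 840.2 and 831 CPM at PND 13 and 929 (replicate 1), 817 and 892 CPM in PND 16 small. The PND 16 large pools had 931, 883 and 873 CPM, and those of PND 40 had 793, 787 and 792 CPM. The highest pool exceeded the lowest by 1.18-fold, and 99.6% of the genes tested, or 98.8% of the 4009 genes averaging 50 CPM or more, had a larger range across the 12 pools. The 3 PND 40 pools were below all 9 others, and the share of all genes tested with such a split was not counted. Their mean was 790.3 ± 3.07 CPM, compared with 896 ± 31.3 CPM in PND 16 large, where it was highest. PND 40 vs. PND 16 large gave a fold change of 0.882 (95% interval 0.805 to 0.967; adjusted p = 0.0976 in edgeR's quasi-likelihood test), which did not pass. It passed with DESeq2 (adjusted p = 0.00956) and in a model of only these 6 pools (adjusted p = 0.0131), and not in 8 other settings. PND 40 vs. PND 16 small gave 0.898 (95% interval 0.819 to 0.985; adjusted p = 0.0745), and it passed in 4 of 10 other settings (adjusted p = 0.0138 to 0.141), without PND 16 small replicate 2 (0.0238) and without the 3 pools of high granulosa marker sums (0.0346). In these comparisons 2 and 4 of the 5 genes had pools that did not overlap between the cohorts, compared with 39.3% and 43.9% of all genes. Competent and non-competent oocytes as groups did not differ in Kit beyond the spread (log2 fold change -0.02, 95% interval -0.15 to 0.11).

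Levels of different genes were compared per kilobase of exon (union of GENCODE M21 exons). Gdf9 had 1841 CPM per kb (1566 to 2004 over 12 pools) and Bmp15 had 1159 (943 to 1289), at ranks 3 and 9 of 23988 genes with a length. Kit had 95.3 CPM per kb (88.3 to 105), Bmp6 had 66.3 (48.7 to 82.2) and Fgf8 had 65.0 (58.5 to 71.7). Gdf9 was above Bmp15, Bmp15 above Kit and Kit above Bmp6 in all 12 pools. Bmp6 and Fgf8, neighbours in this order, changed places: Bmp6 was above Fgf8 in 6 of 6 competent pools and in 0 of 6 non-competent pools, with 54.5 ± 5.09 against 63.1 ± 1.47 CPM per kb at PND 13 and 79.0 ± 4.91 against 66.4 ± 2.48 CPM per kb at PND 40. This order depends on the lengths used, whereas the shift between the groups does not.

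The balance between the transcripts was examined within each pool, as counts relative to Gdf9, because such a ratio does not depend on how pools are scaled. Per 100 counts of Gdf9 there were 5.93 ± 0.644 counts of Bmp6 at PND 13, 6.73 ± 0.484 in PND 16 small, 7.20 ± 0.142 in PND 16 large and 7.74 ± 0.537 at PND 40. The ratio of Bmp6 to Gdf9 was higher in competent oocytes by 0.24 on the log2 scale (two-sided exact permutation test over 924 splits, p = 0.00649, adjusted p = 0.026 over 4 ratios, with 0.00216 the smallest p this test allows). The splits take single pools as units, although each group joins pools of different cohorts, so a difference between cohorts is not set apart from one of competence. The ratio of Bmp6 lay between 7.05 and 8.09 in the competent pools and between 5.52 and 7.14 in the non-competent pools, with PND 16 small replicate 3 inside the competent range. It did not pass without PND 16 large replicate 2 or 3 or without PND 40 replicate 1 or 3 (adjusted p = 0.0606, 0.0606, 0.0693 and 0.0779, exact permutation test). Without the 3 pools of high granulosa marker sums the difference was 0.25, with adjusted p = 0.143 from an exact permutation test over 84 splits, whose smallest p is 0.0119.

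For Kit there were 23.3 ± 2.33 counts per 100 of Gdf9 at PND 13, 25.7 ± 2.29 in PND 16 small, 22.7 ± 0.528 in PND 16 large and 19.9 ± 0.286 at PND 40. The 3 PND 40 pools were at 19.6 to 20.2, and PND 13 replicate 2 was at 20.6. The ratios share Gdf9 as denominator, which was itself higher in competent oocytes by 0.17 on the log2 scale. Kit and Fgf8 themselves differed by -0.02 and 0.07. The difference in the ratio of Kit between competent and non-competent oocytes was -0.20 on the log2 scale (exact permutation test, p = 0.0281, adjusted p = 0.0563), which did not pass with all pools. It passed without PND 13 replicate 2 (-0.25, adjusted p = 0.013, exact permutation test) and without PND 16 large replicate 1 (-0.23, adjusted p = 0.0433, exact permutation test). Bmp15 stood at 89.9 ± 11.3, 98.6 ± 8.91, 96.9 ± 2.24 and 94.9 ± 3.88 counts per 100 of Gdf9 at PND 13, in PND 16 small, in PND 16 large and at PND 40. Its ratio differed by 0.03 on the log2 scale between the groups (exact permutation test, adjusted p = 0.639). The ratio of Fgf8, at 2.25 to 2.51 counts per 100 of Gdf9 by cohort mean, differed by -0.10 (exact permutation test, adjusted p = 0.193). Without PND 13 replicate 2 it differed by -0.15 (exact permutation test, adjusted p = 0.0144). With the 3 pools of high granulosa marker sums left out it differed by -0.00802, and the ratio of Kit by -0.21 (exact permutation test, adjusted p = 0.917 and 0.19).

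**Figure D4:**
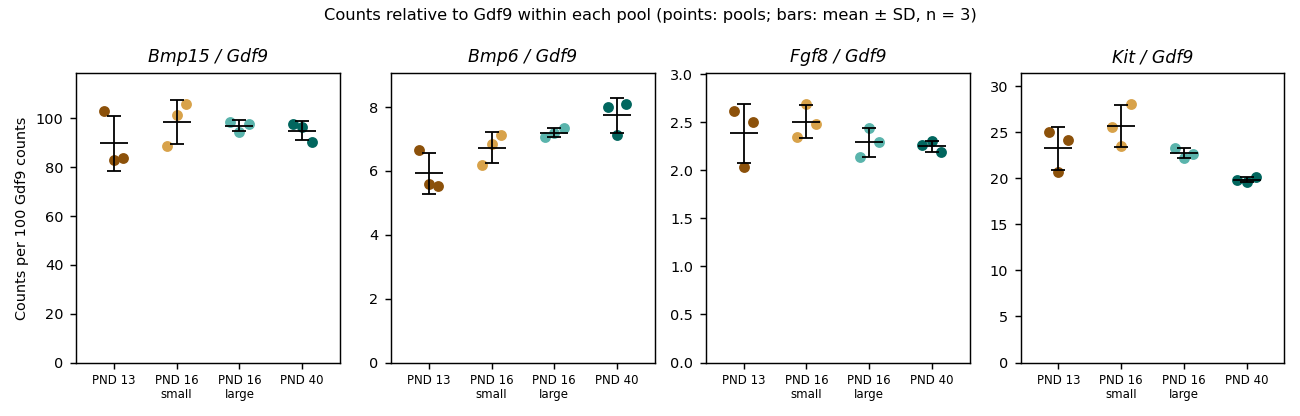
Counts of Bmp15, Bmp6, Fgf8 and Kit per 100 counts of Gdf9 in the same pool, by cohort (points, pools; bars, mean ± SD, n = 3; axes from 0). Bmp6 goes from 5.93 at PND 13 to 7.74 at PND 40 by cohort mean, and Kit is lowest at PND 40, at 19.6 to 20.2.

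The course of each gene over the 12 pools was compared with that of the others and of 9236 further genes averaging 5 CPM or more, by Pearson correlation of log2 CPM. These values are descriptions, and the 12 pools share their cohorts and libraries. Bmp15 and Bmp6 followed each other most closely among the 5 (r = 0.874), then Gdf9 and Bmp6 (r = 0.705) and Gdf9 and Bmp15 (r = 0.624). Kit was weakly negative with each of the others (r = -0.0828 to -0.326). The genes most like Gdf9 were Plrg1 (r = 0.982), Cdk5rap1 (r = 0.961) and Cenpx (r = 0.956). Those most like Bmp15 were Hyls1 (r = 0.955), Ccnl2 (r = 0.954) and Ube2g1 (r = 0.95). For Bmp6 they were Depdc7 (r = 0.974), Akirin2 (r = 0.974) and Dcp1a (r = 0.972), of which Dcp1a, an mRNA decapping factor, had cohort means of 1365, 1507, 1967 and 2097 CPM at PND 13, in PND 16 small, in PND 16 large and at PND 40. Fgf8 was most like the ribosomal protein gene Rpl13a (r = 0.895), Nprl3 (r = 0.837) and the ribosomal protein gene Rpl4 (r = 0.822), and Kit most like Zfp943 (r = 0.914), Iws1 (r = 0.904) and Orc3 (r = 0.904).

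The genes around the 5 members were then counted in hand-compiled lists, first for competent vs. non-competent oocytes, where 3.78% of all genes tested were called higher and 11.2% lower. Of 30 other TGF-beta superfamily ligands, 13 were tested, and 2 were called higher and 0 lower (list median of the log2 fold change 0.12, median of all genes -0.00458). Tgfb3, a TGF-beta isoform, rose from 23.3 to 35.3 CPM by group mean (log2 fold change 0.60, adjusted p = 0.000618), and Gdf6, the other one, was under 1 CPM and was not called without the 3 pools. Of the superfamily's receptors, 10 were tested, and 2 fell and 0 rose (list median -0.20). With the 3 pools left out the same 2 genes fell, and the median was -0.08. Amhr2, the receptor of anti-Müllerian hormone, was then called higher, but it is among the granulosa markers by which these pools were picked. Tgfbr1, the type I receptor also known as ALK5 through which GDF9 signals, fell by 0.96 on the log2 scale (adjusted p = 2.68e-05), with 97.7 to 141 CPM in the non-competent and 56.2 to 75.7 CPM in the competent pools. Acvr2a, a type II activin receptor, fell by 0.64 (adjusted p = 0.000176), with 39.2 to 55.1 and 25.6 to 31.7 CPM. Bmpr2, the type II receptor for GDF9 and BMP15, had a log2 fold change of 0.17 (SE 0.17, adjusted p = 0.488) and ranged from 227 to 489 CPM. It was lowest at PND 13, with cohort means of 252, 411, 404 and 340 CPM from PND 13 to PND 40, and it was called higher in PND 16 small vs. PND 13 (0.70, adjusted p = 0.0364) and in PND 16 large vs. PND 13 (0.68, adjusted p = 0.00418). With the 3 pools left out these were 0.81 (adjusted p = 0.183) and 0.84 (adjusted p = 0.0307).

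Of the 8 SMAD genes, all tested, 1 was called higher and 1 lower (list median 0.20). Smad5, a transducer of BMP signals, fell by 0.71 on the log2 scale (adjusted p = 0.00237), from 77.5 to 47.3 CPM by group mean, and Smad9 had a log2 fold change of 1.43 (adjusted p = 0.00743) at a mean of 1.07 CPM. Smad3, a transducer of the TGF-beta branch, was higher by 0.38 (adjusted p = 0.000988), below 1.5-fold. Without the 3 pools of high granulosa marker sums neither Smad5 nor Smad9 was called, with log2 fold changes of -0.57 and 1.31 (adjusted p = 0.0281 and 0.0651). Of 7 secreted antagonists tested, 0 were higher and 2 lower (list median -1.30). Twsg1, which binds BMPs together with chordin, fell by 1.40 on the log2 scale (adjusted p = 0.000133), from 65.0 to 24.6 CPM, and Bmper, a BMP-binding protein, fell by 1.42 (adjusted p = 0.000762), from 10.2 to 3.79 CPM. Both were called without the 3 pools too, whereas the list median was then 1.00 and Grem1, at a mean of 0.88 CPM, was called higher. Fst, a gene of this list, is among the granulosa markers by which the pools were picked. Of 4 proprotein convertases tested, which cut the ligand precursors, 0 were called by edgeR and 0 had an unadjusted p under 0.05 (list median 0.02). Furin, the best known of them, had 561 CPM and a log2 fold change of 0.08 (adjusted p = 0.274).

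Of 7 other FGF ligands tested, 1 was called higher and 1 lower (list median -0.01). Fgf10 had a log2 fold change of 0.98 (adjusted p = 0.038) at 6.76 and 13.3 CPM by group mean, and it was not called without the 3 pools (0.70, adjusted p = 0.119). The gene called lower was Fgf13 (adjusted p = 0.0409), which was not called without the 3 pools either. Of 11 FGF receptors and feedback inhibitors tested (list median -0.09), 1 was called, Spred3, which was higher by 1.19 at a mean of 1.94 CPM (adjusted p = 0.0287), and without the 3 pools it was not called (0.89, adjusted p = 0.181). Spry4, a feedback inhibitor of receptor tyrosine kinases, was far more abundant, at 918 CPM in non-competent and 1329 CPM in competent oocytes, with a log2 fold change of 0.53 (adjusted p = 0.000241), below 1.5-fold. When the 3 pools were left out, it was 0.66 (adjusted p = 0.000149) and passed both criteria.

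Of 22 genes of KIT signalling tested, including its ligand, 1 was called higher and 3 lower (list median 0.07). Kitl, the ligand made by granulosa cells, had 33.7, 20.8 and 36.7 CPM at PND 13 and 30.3, 21.3 and 53.6 CPM in PND 16 small. It had 19.9, 16.8 and 24.6 CPM in the PND 16 large pools and 12.1, 15.01 and 10.8 CPM in the PND 40 pools. It fell by 0.98 on the log2 scale in competent oocytes (adjusted p = 0.00854). PND 16 small replicate 3, its highest pool, had 16.5 CPM of Inha, and without the 3 pools of high granulosa marker sums Kitl fell by 1.07 (adjusted p = 0.0309). Inha was at 4.42 CPM in PND 16 small replicate 1 (Kitl 30.3 CPM) and at 2.34 CPM in PND 13 replicate 2 (Kitl 20.8 CPM). In the PND 40 pools, with less Kitl, Inha was at 11.4 to 13.2 CPM. PND 13 replicates 1 and 3 were high in both genes. Whether the Kitl counts came from granulosa cells or from the oocytes was not tested. Nor was it tested whether fewer granulosa cells carried over or less Kitl RNA per cell lay behind the fall. Sos1 and Sos2, exchange factors that link receptors to RAS, fell by 0.77 and 0.66 on the log2 scale (adjusted p = 0.000195 and 0.000277), and Lyn, a SRC family kinase, rose by 1.67 (adjusted p = 0.00749) to a mean of 7.19 CPM. The rise of Lyn lay at PND 40, with cohort means of 2.67, 1.83, 3.33 and 11.0 CPM from PND 13 to PND 40. PND 16 large vs. PND 13 gave 0.33 for Lyn (edgeR, adjusted p = 0.515). The calls of Kitl, Sos1, Sos2 and Lyn also held without the 3 pools. Of 10 oocyte transcription factors (list median -0.17), 0 were called higher and 1 lower, which was Tbpl2, a TATA-binding protein paralog of the oocyte, with a fall of 0.87 on the log2 scale (adjusted p = 0.00139). Figla and Nobox, regulators of oocyte genes, had log2 fold changes of 0.02 (adjusted p = 0.946) and -0.20 (adjusted p = 0.022). Taf4b was called lower as well once the 3 pools were left out.

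**Figure D5:**
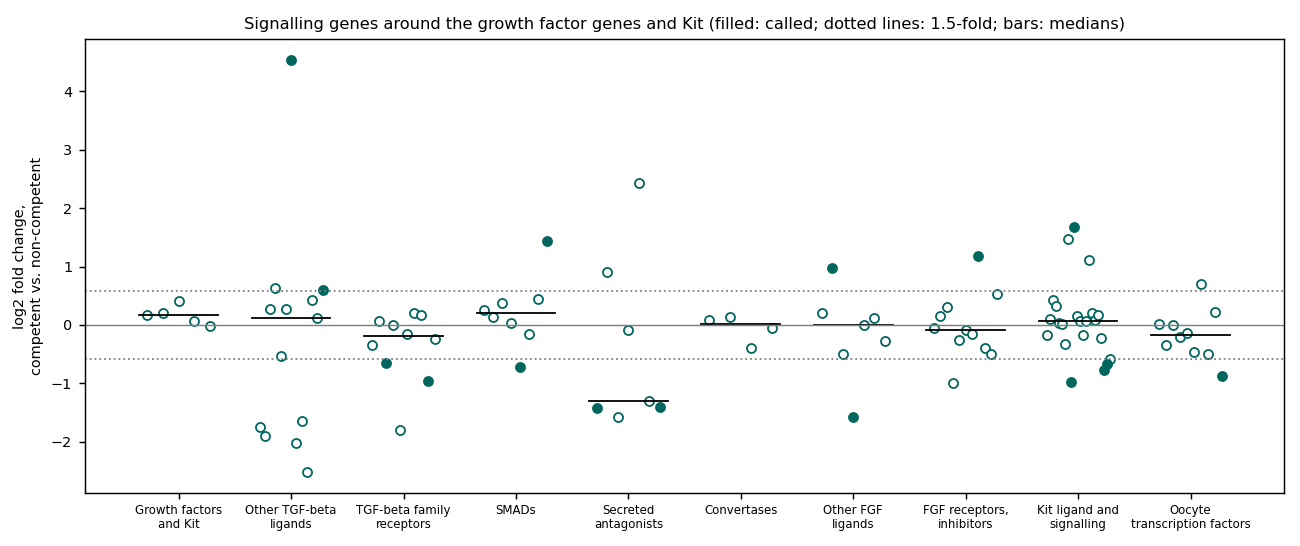
Log2 fold change in competent vs. non-competent oocytes of the 4 growth factor genes and Kit and of every tested gene of 9 lists of related genes (points, genes; filled, called genes; bars, list medians; dotted lines, 1.5-fold). The 5 genes lie between -0.02 and 0.42, inside the dotted lines, whereas receptors such as Tgfbr1 (-0.96) and antagonists such as Twsg1 (-1.40) lie below them.

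Between the competent cohorts, 3.66% of all genes were called in PND 40 vs. PND 16 large, and the study itself found more genes higher than lower there. Called higher were 1 of 13 other TGF-beta superfamily ligands tested, 1 of 10 receptors and 1 of 7 antagonists. So were 3 of 22 KIT signalling genes and 2 of 10 oocyte transcription factors, while 1 of 7 other FGF ligands was called lower. Of 8 SMAD genes, 4 convertases and 11 FGF receptors and feedback inhibitors, 0 were called. Bmp7, a BMP6-related ligand, had 0.450, 0.631 and 0.597 CPM in PND 16 large and 6.56, 3.98 and 3.56 CPM at PND 40, with a log2 fold change of 3.06 (adjusted p = 0.00603). Chrdl1, a BMP antagonist, was higher by 2.22 (adjusted p = 0.00862) and the BMP receptor gene Acvr1 by 1.07 (adjusted p = 0.0486). Of KIT signalling genes, Grb7, an adaptor, was higher by 3.50 (adjusted p = 0.00783), Lyn by 1.73 (adjusted p = 0.00975) and the phosphatase gene Ptpn6 by 1.72 (adjusted p = 0.00644). Sohlh1 and Sohlh2, transcription factors of early oocyte growth, were higher by 4.57 (adjusted p = 0.0215) and 1.67 (adjusted p = 0.00193), with Sohlh1 at a mean of 0.463 CPM. Fgf16 was lower, by 1.56 on the log2 scale (adjusted p = 0.0423). These genes have low counts beside the 5 members, and they were named after their values were seen.

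Genes that mark cell types or answer to the oocyte's factors in cumulus cells were counted in the same way. Of 9 oocyte markers (list median -0.31) 0 were called higher and 2 lower in competent oocytes, namely Ddx4, an RNA helicase of germ cells, and Nlrp5, a maternal effect gene, with falls of 0.82 and 0.62 on the log2 scale (adjusted p = 2.68e-05 and 0.00251). Zp2, a zona pellucida gene, was called lower as well when the 3 pools were left out. Of 15 granulosa and cumulus markers 3 were called lower, Kitl, Fshr and Gatm, and 0 higher (median -1.58). With these pools left out the counts were 1 lower (Kitl) and 2 higher (Amhr2 and Hsd17b1), and the median was 0.63. All 3 pools are non-competent and were picked by the sums of these same 15 genes. Leaving them out therefore moves this list upward by construction, and these values are no test of its direction. Of 6 tested genes that GDF9 and BMP15 are known to regulate in cumulus cells, 0 were called higher and 1 lower, Ptgs2, at 2.17 and 0.737 CPM, and Ptx3 and Tnfaip6 reached at most 6 counts and 1 count in a pool. The median of these 6 genes was -0.54, and without the 3 pools it was 1.17, with Grem1 and Npr2 called higher and Ptgs2 lower. The choice of pools by granulosa markers limits this median in the same way, and Amh is on both lists. Of 9 theca and stromal markers 1 was called lower, Hsd3b1, which was not called without the 3 pools (list median -0.07). Of 3 blood, immune and endothelial markers tested 0 were called by edgeR, and 0 had an unadjusted p under 0.05 (list median -0.05).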

How the data were processed

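RNA-Seq was performed by the authors on 12 pools of oocytes, 3 per cohort, with directional libraries after depletion of ribosomal RNA, and the reads were processed on the Rosalind platform. The authors deposited raw counts per gene and pool, without normalization, and log2 values, made by dividing the counts of a pool by its size factor, adding 1 and taking the log2. Per the labels, the submitters' processing notes name FastQC, STAR, HTSeq, DESeq2, DESeq, HOMER and the build mm10, without versions or roles, and the annotation and strand setting are not given in the sources used here. There are 5 symbols that are listed more than once, and these were kept as separate genes. None of them is a gene named in the text. Reads carry no molecular identifiers, so the spread between pools, not counting error, was used throughout.

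Groups were taken from the sample labels. Counts were fitted with edgeR 4.0.16 in R 4.3.3 (filterByExpr with minimum count 10, TMM factors 0.955 to 1.07, robust quasi-likelihood test), with the 4 cohorts in 1 model for pairs of cohorts and with 2 groups for competent vs. non-competent oocytes. P-values were adjusted by Benjamini-Hochberg over all 13943 genes tested. A gene was called with a change of 1.5-fold or more and an adjusted p no higher than 0.05, the study's criteria. Standard errors were approximated from the log2 fold change and the F statistic. Ratios to Gdf9 used counts with 0.5 added and exact permutation tests in Python 3.11.15 with numpy 2.4.6 and scipy 1.17.1, and figures used matplotlib 3.10.9. The fit recovered changes set in simulated counts. Pools of a cohort differed by more than sampling noise (chi-square per gene 9.24 to 50.2). The pools are described as independent and made from 3 mice per condition, so p-values measure the spread between such pools. In competent vs. non-competent oocytes they take pools, not cohorts, as units. Promoter sequences are from RefSeq (GRCm38.p6) and coordinates from GENCODE M21.

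The 5 genes are named in every comparison, with the 3 most correlated genes for each, the called genes of each list with the largest change in competent vs. non-competent oocytes (at most 4, mean of at least 1 CPM), and Kitl, Furin, Bmpr2, Figla and Nobox. Other genes in the text were added after their values were seen. The rule for the 5 genes uses no measured value, but they and the lists were chosen with earlier results of these data known. Alternatives were DESeq2 1.42.0, limma 3.58.1 on the log2 values (pseudocount 1 or 0.1), RLE, upper quartile and total count scaling, no filter or a stricter one (50 counts in 3 pools), a model of the 6 pools compared, cohort means in the model of 4 cohorts, no fold-change criterion, 1 added to counts in ratios, a replicate block and each pool left out. Leaving out the 3 pools with the highest granulosa marker sums was chosen after seeing the data.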

Additional observations from a re-analysis of the deposited data

How the results depend on the processing

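In competent vs. non-competent oocytes, Bmp6 and Bmp15 kept an adjusted p of at most 0.05 under all 10 other settings, after leaving out each pool in turn and without the 3 pools of highest granulosa marker sums. No gene was called under DESeq2, limma, other scalings, other filters, a model of the 6 pools compared, cohort means or the replicate block. Without a fold-change criterion, 2 were called in PND 16 large vs. PND 13, 2 in PND 40 vs. PND 13, 1 in PND 16 large vs. PND 16 small, 1 in PND 40 vs. PND 16 small and 2 in competent vs. non-competent oocytes. Leaving out 1 pool gave 0 to 1 called in PND 40 vs. PND 13 (Bmp6 without PND 40 replicate 2) and 0 elsewhere. The ratios to Gdf9 ranged, with 1 pool left out, from -0.00333 to 0.0669 (Bmp15), 0.206 to 0.281 (Bmp6, adjusted p = 0.00866 to 0.0779 by exact permutation, past the threshold in 8 of 12), -0.155 to -0.0745 (Fgf8) and -0.247 to -0.159 (Kit). Without the 3 pools the ratio of Bmp6 was 0.249 (adjusted p = 0.143). The replicate numbers do not pair the pools, with correlations of deviations from -0.442 to 0.0753 between same-numbered pools. With the replicate block 0 members were called in each comparison, and the ratio differences had adjusted p = 0.037 (Bmp6), 0.0741 (Kit), 0.259 (Fgf8) and 0.667 (Bmp15) by exact permutation within numbers.

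No log2 fold change passed the threshold in a setting that changed its sign, and the cause of these changes was not tested. In PND 16 small vs. PND 13, with total counts only, they were -0.0307 (Bmp15), -0.0832 (Fgf8) and -0.0197 (Kit), while scaling by total counts moved the median of all genes to -0.124. There Fgf8 was also -0.00519 by upper quartile, -0.00678 without a filter, -0.00729 with a stricter one and -0.00281 in the 6 pools alone. Bmp15, Bmp6 and Fgf8 were -0.0404, -0.0131 and -0.0151 there without the 3 pools, which also put Gdf9 at -0.0433 in PND 16 large vs. PND 13 and -0.0303 in PND 40 vs. PND 13, and Kit at -0.0173 in PND 16 large vs. PND 16 small. By total counts, Fgf8 was -0.0109 in PND 16 large vs. PND 13, where the median of all genes was -0.132. In PND 40 vs. PND 16 large, Bmp15 was 0.00987 and Fgf8 0.0142 by total counts, and Fgf8 0.000844 by upper quartile. With 1 pool left out, the values that changed sign ranged in PND 16 small vs. PND 13 from -0.131 to 0.00545 (Gdf9), -0.00767 to 0.106 (Bmp15) and -0.0669 to 0.0585 (Fgf8). They ranged from -0.0214 to 0.0717 for Kit in PND 16 large vs. PND 16 small, -0.00394 to 0.121 for Fgf8 in PND 40 vs. PND 16 small and -0.0619 to 0.00535 for Kit in competent vs. non-competent oocytes. In PND 40 vs. PND 16 large they ranged from -0.0054 to 0.025 (Gdf9), -0.041 to 0.0278 (Bmp15) and -0.0529 to 0.0335 (Fgf8). With 3 pools per cohort and 1333 counts or more per pool, the spread between pools rather than depth set the width of the intervals.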
